A study of Mus musculus with 7 samples.

Results

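The neurons described here are 9161 single cells of the mouse ventromedial prefrontal cortex, 37.6% of the 24383 prefrontal cells in 5 droplet libraries and part of 32985 cells over prefrontal and motor cortex together. They were picked by their own transcript counts, as unique molecular identifiers (UMIs, 1 per captured mRNA molecule). An inhibitory neuron had at least 2 UMIs of Gad1 and Gad2 together and at most 1 of Slc17a7, and an excitatory neuron had at least 2 UMIs of Slc17a7 and at most 1 of Gad1 and Gad2. Inhibitory neurons with at least 5 Sst UMIs were called Sst cells, of those left the ones with at least 2 Pvalb UMIs Pvalb cells, then those with at least 3 Vip UMIs Vip cells, and what remained the rest. That gave 7572 excitatory and 1589 inhibitory neurons, the latter made of 396 Sst, 293 Pvalb, 271 Vip and 629 other cells. Since the counts of these 6 genes made the classes, their levels are described below and not tested.

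The study compared mice that lack most intrinsically photosensitive retinal ganglion cells (ipRGCs) with controls. The DTA group was Opn4-Cre/+; Brn3b-zDTA/+ (3 libraries) and the CTRL group Opn4-Cre/+; Brn3b-+/+ (2 libraries), so that both carried the Cre allele. All mice were B6129SF1/J, at P30, kept in 12 h of light and 12 h of dark, and the tissue was dissected by hand and dissociated into live cells. In DTA mice, diphtheria toxin A is made where melanopsin-driven Cre and the Brn3b locus are both active; ipRGCs that do not use Brn3b, among them those that supply the circadian clock of the suprachiasmatic nucleus, are known to be spared. The ablated cells sit in the retina, so the toxin and melanopsin were not analysed here, and no value below checks the genotype. The labels speak of a brain taken for each sample and give no litter; p-values measure the spread between these libraries.

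Cortical inhibitory neurons make GABA with the enzymes encoded by Gad1 and Gad2 and load it into vesicles with Slc32a1, whereas Slc17a7 encodes the vesicular glutamate transporter of excitatory neurons. Pvalb cells are mostly fast-spiking basket and chandelier cells that contact the soma and axon start of their targets, Sst cells mostly contact dendrites, and Vip cells mostly contact other inhibitory neurons. Pvalb and Sst cells arise in the medial and Vip cells in the caudal ganglionic eminence of the embryo, and both Pvalb cells and their perineuronal nets mature late in the postnatal cortex.

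The libraries held 1936 and 9879 cells (CTRL replicates 1 and 2) and 2623, 3873 and 6072 cells (DTA replicates 1, 2 and 3). Median UMIs per cell were 4827.5 and 1970 in CTRL and 1360, 4924 and 1558.5 in DTA. Libraries whose excitatory neurons had a median above 8000 UMIs, CTRL replicate 1 and DTA replicate 2, were called deep and the others shallow. Each group holds both kinds. Excitatory medians in the shallow libraries were 4702 UMIs in CTRL replicate 2 and 4914 and 7144 UMIs in DTA replicates 1 and 3, so shallow libraries differed in depth. Within excitatory neurons the medians were 4702 to 13133 UMIs, and within inhibitory neurons 2852 to 8405. Between 0.362% and 1.498% of the smaller library's cell barcodes recurred in another library. DTA replicate 3 stood apart in several readouts: Malat1, a nuclear RNA, was at 52130 CPM (a gene's summed UMIs relative to all UMIs of the class in that library) in its excitatory neurons, against 20497 to 22142 CPM in the others.

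The inhibitory and excitatory classes matched their names when read on genes the gate did not use. Transcripts of other cell types in the rest are given with the shares. All 15 other GABAergic genes on a fixed list were higher in inhibitory than in excitatory neurons in each of 5 libraries: Slc32a1 averaged 336 against 1.44 CPM, and the interneuron transcription factor gene Dlx1 119.7 against 0.628 CPM. All 14 genes of excitatory neurons were higher in the excitatory class in each library. Few excitatory neurons reached a subtype threshold, at most 0.305% of a library for Sst, 0.219% for Pvalb and 0.183% for Vip, which is the level of stray transcripts in cells that should lack these genes. The edge of the gate was thin for subtypes and thicker for classes. At exactly 2 Pvalb UMIs stood 1 and 15 CTRL and 1, 1 and 3 DTA cells, and at 1 UMI, just outside, 3 and 36 CTRL and 4, 10 and 7 DTA cells. At exactly 5 Sst UMIs stood 0 and 2 CTRL and 0, 0 and 1 DTA cells, and at exactly 3 Vip UMIs 0 and 3 CTRL cells and no DTA cell. At 2 Gad1 and Gad2 UMIs stood 3 and 163 CTRL and 20, 24 and 63 DTA cells, and just below 29 and 510 CTRL and 51, 91 and 449 DTA cells.

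The genes that chose the cells were abundant in both genotypes. Pvalb in Pvalb cells was at 2961 and 2430 CPM in CTRL and 2948, 2228 and 3394 CPM in DTA, overlapping groups. Sst, in Sst cells, was at 19525 and 19556 CPM in CTRL and 17480, 15989 and 16805 CPM in DTA. Vip in Vip cells spanned 15294 and 16379 CPM in CTRL and 17737, 11817 and 14232 CPM in DTA. Gad1 in inhibitory neurons was at 1104 and 1165 CPM in CTRL and 1197, 945 and 1184 CPM in DTA, and Gad2 at 942 and 961 CPM in CTRL and 889, 878 and 657 CPM in DTA. Sst and Gad2 were lower in every DTA library than in either CTRL library, and the other gate genes overlapped. Slc17a7 in excitatory neurons lay at 1032 and 1004 CPM in CTRL and at 901, 1091 and 928 CPM in DTA.

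Each subtype carried the partner genes known for it. Subtypes were compared with the other inhibitory neurons of the same library by edgeR's quasi-likelihood test on counts summed per library and subtype (Benjamini-Hochberg adjusted p under 0.05), but cells were chosen within this same contrast, so the counts describe the gate and nothing is read from them. Called genes were 18.7% of those measured for Sst cells, 41.6% for Pvalb cells, 29% for Vip cells and 14.3% for the rest. In Sst cells the highest folds outside the gate genes belonged to Pdyn, the prodynorphin precursor, which averaged 205 CPM in Sst cells and 0.486, 0.775 and 0.961 CPM in Pvalb, Vip and rest cells. Others were Crhbp, the corticotropin-releasing hormone binding protein (507 CPM, against 167 CPM in Pvalb cells), the glutamate receptor subunit Grin3a (546 CPM) and Lypd6 (357 CPM). Pvalb cells were led by Syt2, a fast calcium sensor of transmitter release (220 CPM, against 2.7, 0 and 3.4 CPM in Sst, Vip and rest cells). They also had Tac1, the substance P precursor, at 1022 CPM, a gene that the fixed lists used here pair with Sst. Vip cells had the serotonin-gated channel Htr3a at 382 CPM, Tac2 at 2313 CPM, Cxcl14 at 3002 CPM and the caudal-eminence genes Adarb2 and Prox1 at 796 and 230 CPM. In the rest stood Ndnf (212 CPM), Cplx3 (211 CPM) and Lamp5 (393 CPM), genes of neurogliaform cells. Haemoglobin Hba-a1 was among the genes leading the rest, at 7.0 to 3572 CPM by library.

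**Figure D1:**
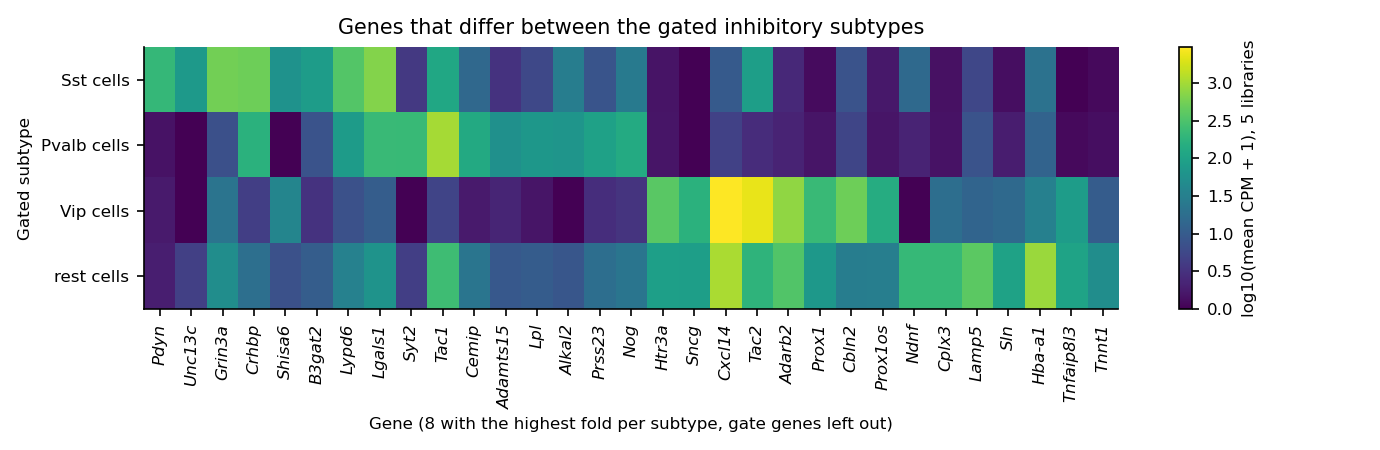
Mean expression over 5 libraries, as log10 of CPM + 1, of genes that lead each inhibitory subtype (horizontal axis). Sst, Pvalb, Vip and rest cells are on the vertical axis. Each block of genes is highest in its own subtype, Syt2 for example at 220 CPM in Pvalb cells and at most 3.4 CPM elsewhere; the gate chose the cells, so the plot is a description.

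Pvalb cells made up a smaller part of the inhibitory neurons in every DTA library than in either CTRL library. They were 21.6% and 20.8% of inhibitory neurons in CTRL (32 of 148 and 174 of 836 cells) and 15.9%, 16.5% and 10.96% in DTA (17 of 107, 46 of 279 and 24 of 219 cells). The groups did not overlap. CTRL averaged 21.2% ± 0.572 (SD, n = 2), DTA averaged 14.4% ± 3.03 (SD, n = 3), and DTA minus CTRL was -6.77 percentage points, a ratio of 0.681. A 2-sided exact permutation test gave p = 0.1, the smallest that 3 against 2 libraries allow. As a share of all gated neurons, Pvalb cells were 3.58% and 4.23% in CTRL and 2.47%, 2.45% and 1.51% in DTA, a ratio of 0.549 (exact permutation p = 0.1). A stricter neuron gate, with at least 3 UMIs of a class's own genes and 0 of the other's, kept the groups apart (22.8% and 25.0% against 19.5%, 16.1% and 15.8%). When each cell was thinned to 2000 UMIs and shallower cells left out, the shares were 15.1% and 24.9% in CTRL and 16.4%, 13.8% and 9.86% in DTA, which overlapped (difference -6.63 percentage points, exact permutation p = 0.3). Among Pvalb and Sst cells alone, Pvalb cells averaged 44.1% in CTRL and 37.9% in DTA, with overlapping groups (exact permutation p = 0.3). These shares also overlapped after thinning to 2000 UMIs (exact permutation p = 0.6). They did not overlap after thinning to 1000 UMIs (exact permutation p = 0.1) or with higher subtype thresholds (exact permutation p = 0.2). Within the deep libraries the Pvalb share of inhibitory neurons differed by -5.13 percentage points, DTA minus CTRL, and within the shallow ones by -7.39. The shallow ones were not matched in depth: Pvalb cells had medians of 4533.5 UMIs in CTRL replicate 2 and 4945 and 12033.5 UMIs in DTA replicates 1 and 3. A cell with too few Pvalb UMIs leaves this class, so fewer Pvalb cells and less Pvalb mRNA per cell cannot be told apart by the gate. The denominator includes the rest, where 5 red blood cell markers summed to 59.2 and 2851 CPM in CTRL and 656, 94.4 and 13704 CPM in DTA. There 10 oligodendrocyte markers summed to 122 and 2292 CPM in CTRL and 408, 101 and 4112 CPM in DTA. The part of other cell types in these shares was not tested.

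Inhibitory neurons as a whole were a smaller share of the gated neurons in DTA. They made up 16.5% and 20.3% in CTRL and 15.6%, 14.9% and 13.8% in DTA. Means were 18.4% ± 2.68 (SD, n = 2) and 14.7% ± 0.883 (SD, n = 3), a difference of -3.70 percentage points (exact permutation p = 0.1). The lowest CTRL library stood just above the highest DTA library. After thinning to 2000 UMIs the shares were 21.8% and 24.1% in CTRL and 20.3%, 19.1% and 16.1% in DTA (exact permutation p = 0.2). Under the stricter gate they overlapped, with 15.5% and 19.5% in CTRL and 17.2%, 12.6% and 11.6% in DTA. The difference was -1.68 percentage points within the deep libraries and -5.65 within the shallow ones, which were not matched in depth. Without CTRL replicate 2 the difference was -1.80.

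The other subtypes did not separate by genotype as shares of inhibitory neurons. Sst cells were 30.4% and 23.8% in CTRL and 19.6%, 29.7% and 21.9% in DTA, a difference of -3.34 percentage points (exact permutation p = 0.5). As a share of all gated neurons, Sst cells were 5.03% and 4.84% in CTRL and 3.05%, 4.42% and 3.02% in DTA, groups that did not overlap (exact permutation p = 0.2). Vip cells were 26.4% and 13.0% of inhibitory neurons in CTRL and 17.8%, 20.1% and 21.9% in DTA. The CTRL libraries enclosed all DTA libraries, and the difference of 0.221 percentage points (exact permutation p = 0.9) changed sign in several settings given in the closing section. The rest was 21.6% and 42.3% in CTRL and 46.7%, 33.7% and 45.2% in DTA (exact permutation p = 0.4). Deep libraries had a smaller rest than shallow ones within both genotypes, 21.6% against 42.3% and 33.7% against 45.2% to 46.7%.

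**Figure D2:**
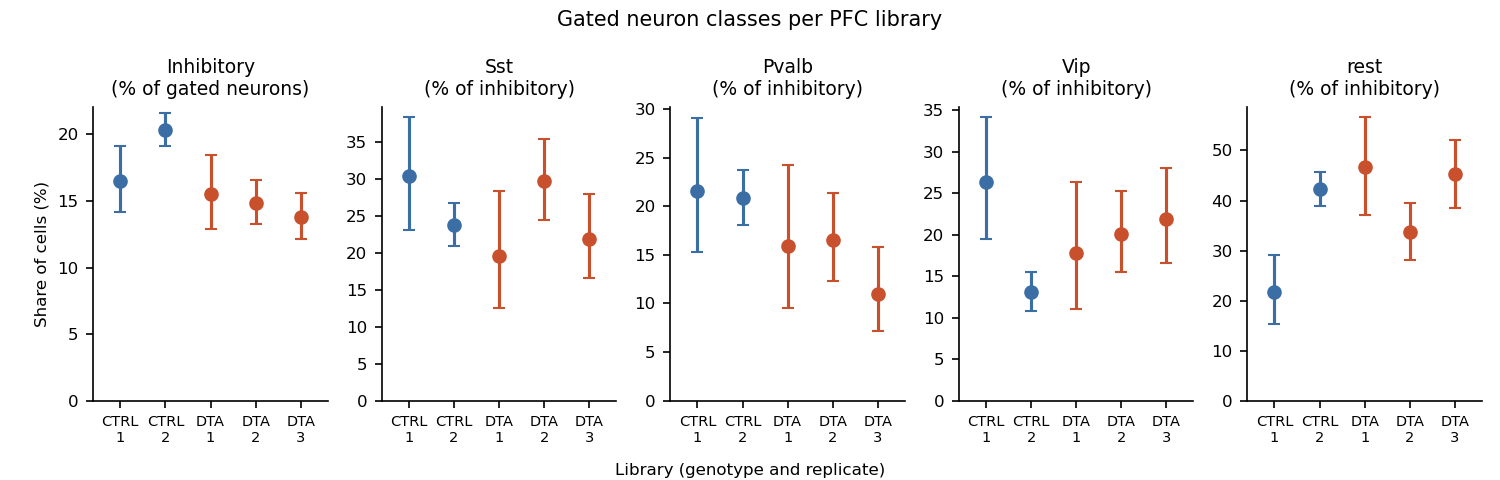
Share of inhibitory neurons among gated neurons, and of Sst, Pvalb, Vip and rest cells among inhibitory neurons, in percent, for each of 5 libraries with its exact 95% binomial interval (counting error only). Pvalb shares of 20.8% and 21.6% in CTRL lie above the 10.96% to 16.5% of DTA, while the Sst, Vip and rest shares overlap between genotypes.

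In the motor cortex neither the inhibitory share nor the Pvalb share was lower in DTA. It had 1 library a genotype, so there is no replicate and no test. Inhibitory neurons were 20.9% of gated neurons in the CTRL library (95% Clopper-Pearson interval 19.3% to 22.5%) and 24.6% in the DTA library (21.9% to 27.4%). Pvalb cells were 27.2% (23.5% to 31.1%) and 30.8% (24.9% to 37.1%) of inhibitory neurons. Vip cells were 11.9% and 20.9%, and the rest 44.5% (40.3% to 48.7%) and 28.6% (22.9% to 34.9%). The intervals cover counting error only. Median UMIs per cell were 2642 in the CTRL and 4752 in the DTA library, so depth and genotype cannot be told apart there.

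No gene passed the threshold between genotypes in Pvalb cells, where 2 came close. The mitochondrial gene mt-Nd4l, a subunit of respiratory complex I, was at 96.7 and 76.5 CPM in CTRL and 186, 192 and 197 CPM in DTA. Every DTA library lay well above both CTRL libraries (log2 fold change 1.24, SE 0.24, edgeR adjusted p = 0.0503). The glycolytic enzyme Eno1 was at 96.7 and 112 CPM in CTRL and 199, 197 and 293 CPM in DTA (log2 1.21, SE 0.24, edgeR adjusted p = 0.0503). In excitatory neurons Eno1 was at 134 and 157 CPM in CTRL and 131, 273 and 317 CPM in DTA, and mt-Nd4l at 61.6 and 36 CPM and 67.9, 113 and 97.2 CPM. Reads of mt-Nd4l overlap those of mt-Nd4, and Eno1 has near-identical copies in the genome, so both counts are uncertain. Of 7092 genes tested in Pvalb cells, edgeR called 0% and DESeq2 called 0; 462 had an unadjusted p under 0.05. Groups did not overlap for 22.1% of the genes.

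At the lower end in Pvalb cells stood Robo2 and Bri3. Robo2, a receptor for Slit ligands, was at 113 and 136 CPM in CTRL and 53.1, 75.5 and 56.3 CPM in DTA (log2 -0.88, edgeR adjusted p = 0.372). Bri3 was at 182 and 237 CPM in CTRL and 79.7, 147 and 98.6 CPM in DTA (log2 -0.76, edgeR adjusted p = 0.412). Neither gene passed the test. Robo2 and Bri3, like mt-Nd4l and Eno1, were picked among genes whose groups did not overlap, so their separation is no result. Pthlh, a secreted peptide of fast-spiking cells, went the other way, with 55.3 and 65.6 CPM in CTRL and 79.7, 105 and 175 CPM in DTA (log2 1.12, edgeR adjusted p = 0.248).

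Immediate early genes, which neurons switch on within minutes of strong activity, had their highest median in Pvalb cells, over the members tested in each class. Of 18 tested, 15 were higher in DTA, the median log2 difference was 1.11, 7 were higher in every DTA library than in any CTRL library and 0 were lower in all. For either direction the background was 22.1%. The list holds 26 genes. A gene could pass the count filter through the DTA libraries alone, so these counts and the median can lean upward. Egr1 in Pvalb cells was at 50.6 and 49.8 CPM in CTRL and 120, 82.3 and 186 CPM in DTA (log2 1.40, edgeR adjusted p = 0.12). Jun was at 96.7 and 101 CPM in CTRL and 385, 166 and 645 CPM in DTA, and Fosb at 18.4 and 12.1 CPM in CTRL and 39.8, 41.2 and 144 CPM in DTA. DTA replicate 3 was highest for each of these. Summed over the list, Pvalb cells had 1278 and 1312 CPM in CTRL and 1740, 1598 and 4642 CPM in DTA. Without DTA replicate 3 the list's median in Pvalb cells was 0.62, and with cells thinned to 2000 UMIs it was 0.18.

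The same list depended on that library in the other classes. In all inhibitory neurons 21 of 26 were higher in DTA with a median of 0.65, and the median was 0.03 without DTA replicate 3. Vip cells went from a median of 0.69 to -0.43 without that library, Sst cells from 0.61 to -0.05 and the rest from 0.96 to 0.43. In excitatory neurons 14 of 26 were higher, with a median of 0.02, and the list summed to 4635 and 2406 CPM in CTRL and 3067, 2871 and 4450 CPM in DTA. Leaving out CTRL replicate 1 moved that median to 0.74, and leaving out CTRL replicate 2 to -0.46. Heat shock chaperones, which refold stressed proteins, summed highest in DTA replicate 3 in Pvalb cells and in inhibitory neurons, and in DTA replicate 1 in excitatory neurons (5774 CPM, against 5581 CPM in DTA replicate 3). Of those that passed the count filter, 10 of 10 were higher in DTA Pvalb cells (median 0.65, or 0.24 without DTA replicate 3) and 9 of 11 in DTA inhibitory neurons (median 0.45, or 0.19). Hspa8, the constitutive chaperone, was at 610 and 827 CPM in CTRL and 1620, 885 and 2280 CPM in DTA Pvalb cells (log2 1.20, edgeR adjusted p = 0.278). The part of dissociation and RNA quality in these lists was not tested.

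**Figure D3:**
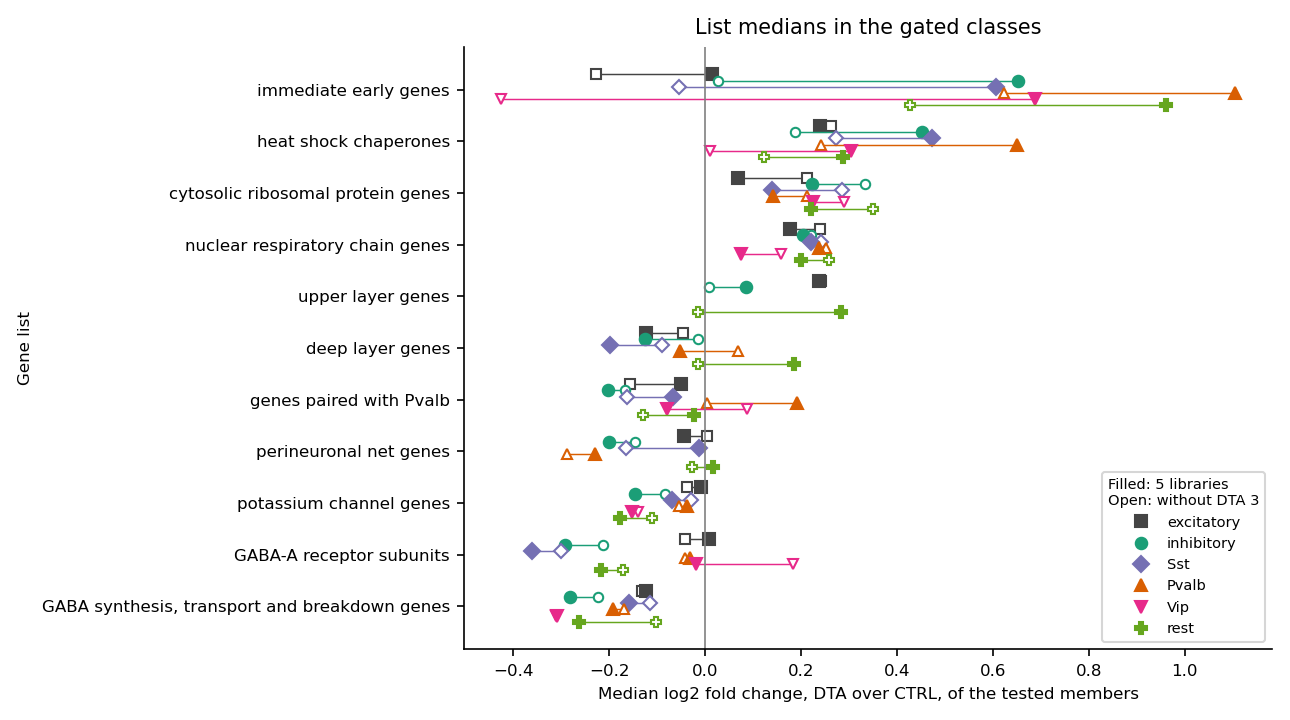
Median log2 difference of DTA over CTRL for each gene list in each neuron class; filled points use 5 libraries, open points leave out DTA replicate 3. Immediate early genes have a median of 1.11 in Pvalb cells and 0.02 in excitatory neurons, and that in inhibitory neurons goes from 0.65 to 0.03 without the one library. Each median covers the members that passed the count filter in that class.

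Vip cells were the class in which genes passed the threshold: Npy and Calb1 fell. They are 0.0361% of the 5538 genes tested, and 200 had an unadjusted p under 0.05. Npy, the precursor of neuropeptide Y, was at 856 and 937 CPM in CTRL and 129, 196 and 281 CPM in DTA Vip cells. Every DTA library lay below both CTRL libraries by a wide gap (log2 -1.99, SE 0.26, edgeR adjusted p = 0.000112). DESeq2 also called Npy (adjusted p = 5.44e-06), and without DTA replicate 2 edgeR's adjusted p for Npy was 0.0591. Calb1, the calcium-binding protein calbindin, was at 177 and 93.0 CPM in CTRL and 0, 26.7 and 21.2 CPM in DTA (log2 -2.56, SE 0.42, edgeR adjusted p = 0.00465; DESeq2 adjusted p = 0.238). Its call was lost without CTRL replicate 1 (edgeR adjusted p = 0.148) and without DTA replicate 1, 2 or 3 (0.0716, 0.117 and 0.207), and with the stricter neuron gate (0.206).

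Few cells carried these differences. In Vip cells of CTRL replicate 1, a single cell held 119 of 223 Npy UMIs and a single cell 42 of 46 Calb1 UMIs. The share of Vip cells with an Npy UMI was 23.1% and 25.7% in CTRL and 15.8%, 19.6% and 33.3% in DTA, which overlapped. For Calb1 that share was 7.69% and 19.3% in CTRL and 0%, 7.14% and 14.6% in DTA. Without the 3 cells richest in the gene in each library, Npy was at 89.7 and 512 CPM in CTRL and 0, 51.1 and 109 CPM in DTA, and the groups overlapped. Calb1 was then at 0 and 73.9 CPM in CTRL and 0, 3.27 and 11 CPM in DTA. Removing 3 cells takes a larger part of a small library. Vip cells numbered 39 and 109 in CTRL and 19, 56 and 48 in DTA. Where at most 3 cells held the gene, a level of 0 is fixed by the removal. The overlap without these cells therefore cannot decide whether the calls hold. Npy is far more abundant in other inhibitory cells, at 2866 and 4806 CPM (CTRL) and 3784, 2122 and 5961 CPM (DTA) in Sst cells, with no separation of the genotypes. In the rest it was at 13512 and 7329 CPM in CTRL and 4831, 5287 and 10166 CPM in DTA.

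**Figure D4:**
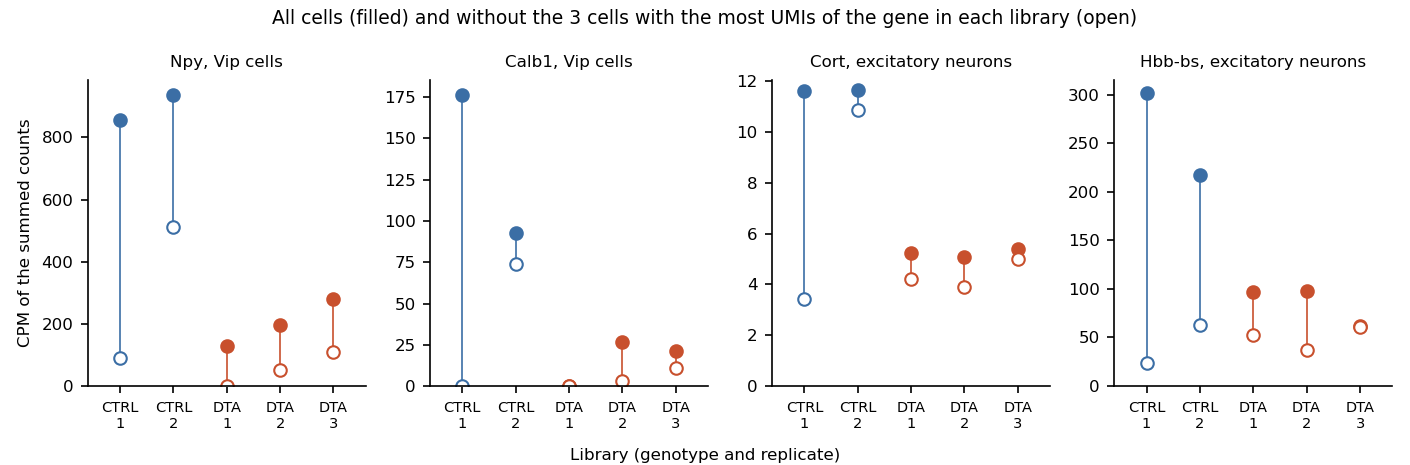
CPM per library of Npy and Calb1 in Vip cells and of Cort and Hbb-bs in excitatory neurons, with all cells (filled) and without the 3 cells that hold most UMIs of the gene (open). Npy in CTRL replicate 1 drops from 856 to 89.7 CPM, and Hbb-bs in the same library from 301 to 24.1 CPM. The 3 cells are a larger part of a class with few cells.

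In Sst cells edgeR called 0% of 7972 genes and DESeq2 0, with 355 at an unadjusted p under 0.05 and groups apart for 19.2%. Adprh, an ADP-ribosylarginine hydrolase, was at 53.5 and 68.1 CPM in CTRL and 105, 122 and 149 CPM in DTA (log2 1.10, edgeR adjusted p = 0.297). The secreted protein gene C1qtnf4 was at 81.3 and 59.1 CPM in CTRL and 179, 135 and 130 CPM in DTA (log2 1.04, edgeR adjusted p = 0.329). At the lower end stood Zdhhc22, a palmitoyltransferase, at 81.3 and 125 CPM in CTRL and 31.5, 62.3 and 40.0 CPM in DTA. None of these genes passed the test, and they were picked among genes whose groups did not overlap, so their separation is no result. Apoe, the astrocyte apolipoprotein, was also lower in Sst cells of DTA, at 85.6 and 225 CPM in CTRL and 21.02, 63.3 and 69.5 CPM in DTA (2 counts in DTA replicate 1). The 10 astrocyte markers, all detected and Apoe among them, summed to 391 and 627 CPM in CTRL and 336, 288 and 410 CPM in DTA Sst cells, overlapping groups. Of the 5 that could be tested 1 was higher (median log2 -1.04), and 3 were lower in every DTA library. Microglia markers had 0 of 6 tested higher in Sst cells (median -0.75) and oligodendrocyte markers 0 of 4 (median -1.47). All 10 microglia markers together summed to 111 and 303 CPM in CTRL and 73.6, 171 and 52.1 CPM in DTA. The 10 oligodendrocyte markers summed to 145 and 767 CPM in CTRL and 158, 91.2 and 182 CPM in DTA. Groups overlapped for both sums, and CTRL replicate 2 was the highest library. The part of these other cells' RNA in the Sst cell values was not tested.

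In the rest, edgeR called 0% of 7924 genes and DESeq2 0, with 280 at an unadjusted p under 0.05 and groups apart for 19.3%. At the lower end stood Unc5c, Fut9 and Hapln1, none called. Unc5c, a netrin receptor, was at 139 and 141 CPM in CTRL and 56.0, 67.7 and 60.9 CPM in DTA (log2 -1.10, edgeR adjusted p = 0.304). Fut9, which makes the Lewis x glycan, was at 209 and 214 CPM in CTRL and 88.0, 120 and 114 CPM in DTA (log2 -0.88, edgeR adjusted p = 0.826). Unc5c and Fut9, like Hmgn2 and Btg1 below, were picked among genes whose groups did not overlap, so their separation is no result. Hapln1, which links hyaluronan to proteoglycans in perineuronal nets, was at 338 and 248 CPM in CTRL and 128, 206 and 175 CPM in DTA. At the upper end were the chromatin protein gene Hmgn2, which has many genomic copies, at 24.4 and 41.7 CPM in CTRL and 72.0, 165 and 120 CPM in DTA (log2 1.88, edgeR adjusted p = 0.109), and Btg1, an antiproliferative gene, at 87.0 and 98.5 CPM in CTRL and 200, 172 and 285 CPM in DTA (edgeR adjusted p = 0.197). The 9 neuroblast markers, all detected, summed in the rest to 494 and 467 CPM in CTRL and 872, 625 and 609 CPM in DTA, above CTRL in every DTA library. Of the 7 tested, 6 were higher and 4 without overlap (median 0.47), and their part in the values of the rest was not tested.

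Over all inhibitory neurons edgeR called 0% of 10971 genes and DESeq2 0, with 495 at an unadjusted p under 0.05; groups did not overlap for 21.3%. Unc5c was at 57.9 and 68.9 CPM in CTRL and 35.1, 32.6 and 31.9 CPM in DTA inhibitory neurons (log2 -0.92, SE 0.20, edgeR adjusted p = 0.871). In excitatory neurons Unc5c had 19.1 and 24.3 CPM in CTRL and 19.8, 21.6 and 20.5 CPM in DTA, a log2 difference of -0.03. The Slit ligand gene Slit2 was at 78.6 and 58.7 CPM in CTRL and 35.1, 41.4 and 35.8 CPM in DTA inhibitory neurons. St8sia4, a polysialyltransferase, was at 57.9 and 68.6 CPM in CTRL and 46.8, 35.4 and 30.8 CPM in DTA. Fut9 was at 284 and 317 CPM in CTRL and 193, 219 and 143 CPM in DTA. Genes higher in DTA included Eno1, at 80.0 and 94.7 CPM in CTRL and 117, 161 and 209 CPM in DTA (log2 0.98, edgeR adjusted p = 0.871). The others were mt-Nd4l (log2 0.94), Btg1 (1.02), C1qtnf4 (0.91) and Ttll1 (1.12). None of the genes named in either direction passed the test. Each lay on 1 side of CTRL in every DTA library, which was a condition for naming it here.

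Potassium channel, GABA-A receptor and GABA handling genes leaned lower in DTA inhibitory neurons without a single gene passing. Of 27 potassium channel genes 5 were higher in DTA (median log2 -0.15), and 9 were lower in every DTA library than in any CTRL library, where groups did not overlap, in either direction, for 21.3% of all genes tested. Kcnc2, a Kv3 channel of fast-spiking cells, was at 443 and 529 CPM in CTRL and 260, 426 and 272 CPM in DTA. GABA-A receptor subunits had 2 of 13 higher, a median of -0.29 and 5 lower without overlap (the same background of 21.3%), among them Gabrb1 at 96.6 and 111 CPM in CTRL and 79.0, 86.4 and 60.0 CPM in DTA. Genes that load, take up and break down GABA or supply its precursor, gate genes not counted, had 1 of 7 higher and a median of -0.28. Abat, the GABA transaminase, was at 266 and 225 CPM in CTRL and 143, 197 and 162 CPM in DTA. Over all genes tested in inhibitory neurons the median was near 0.

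Genes that mark Pvalb cells gave opposite signs in the pool and in the cells. In pooled inhibitory neurons, which held proportionally fewer Pvalb cells in DTA, 3 of 12 genes paired with Pvalb were higher and the median was -0.20. Within gated Pvalb cells 8 of 11 were higher, with a median of 0.19, or -0.08 after thinning to 2000 UMIs. Of 21 potassium channel genes 10 were higher in Pvalb cells, with a median of -0.04. Genes paired with Sst had 9 of 11 higher in the inhibitory pool (median 0.22, or -0.04 after thinning), and 5 of 6 caudal-eminence genes were higher (median 0.21, or -0.04 without CTRL replicate 2). In bulk sums of this kind, fewer cells of a type and less RNA per cell cannot be told apart.

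**Figure D5:**
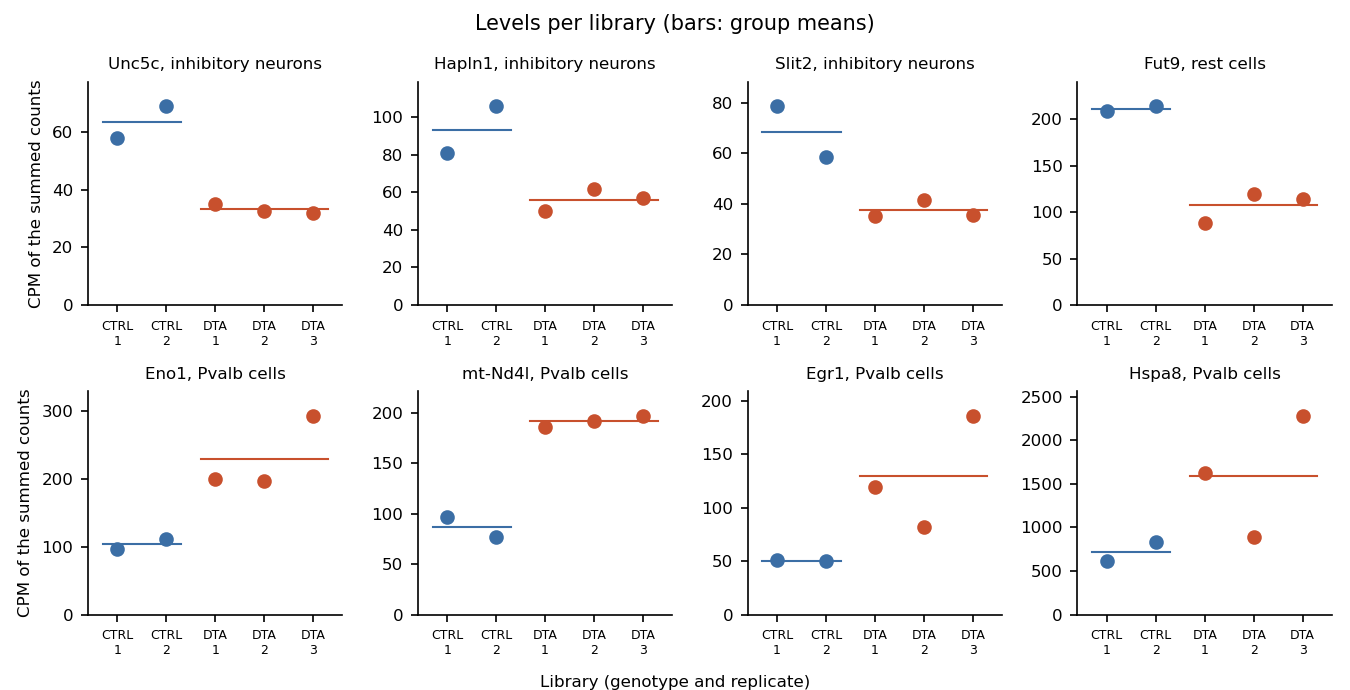
CPM of 8 genes in each of 5 libraries, for the neuron class named above each panel. Unc5c in inhibitory neurons is at 57.9 and 68.9 CPM in CTRL and at most 35.1 CPM in DTA, and Eno1 in Pvalb cells at most 112 CPM in CTRL and at least 197 CPM in DTA. Both were picked among genes whose groups did not overlap, so the gap is no result. None of the 8 genes passed the threshold.

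Excitatory neurons were the largest class: edgeR called 0% of 14201 genes, with 247 at an unadjusted p under 0.05, and groups were apart for 14.3%. DESeq2 called 3, all haemoglobin genes of red blood cells (Hbb-bs, Hba-a2 and Hba-a1, lower in DTA). Hbb-bs was at 301 and 217 CPM in CTRL and 97.1, 98.3 and 62.1 CPM in DTA, but in CTRL replicate 1 a single cell held 2438 of 2849 Hbb-bs UMIs. Without the 3 richest cells a library it was at 24.1 and 63.2 CPM in CTRL and 52.1, 37.6 and 61.2 CPM in DTA, with no separation. The 5 red blood cell markers, all detected, summed to 703 and 421 CPM in CTRL and 213, 181 and 133 CPM in DTA excitatory neurons. Hba-a1 and Hba-a2 are near-identical and their counts cannot be split with certainty.

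The genes with the smallest p in excitatory neurons included S100a6, Grm2 and Cd24a. S100a6, a calcium-binding protein gene, was at 36.0 and 38.0 CPM in CTRL and 63.4, 56.2 and 54.1 CPM in DTA (log2 0.68, SE 0.15). Grm2, a presynaptic glutamate receptor, was at 23.6 and 19.9 CPM in CTRL and 27.8, 40.9 and 34.2 CPM in DTA (log2 0.72). Cd24a, a surface glycoprotein of young neurons, was at 47.9 and 48.8 CPM in CTRL and 32.7, 31.1 and 29.8 CPM in DTA (log2 -0.60). These genes were picked among those whose groups did not overlap, and edgeR's adjusted p-values over all genes were close to 1. Among layer markers, 8 of 10 upper-layer genes were higher in DTA (median 0.24) and 5 of 16 deep-layer genes (median -0.12). Without CTRL replicate 1 the deep-layer median was 0.18, and after thinning to 2000 UMIs the upper-layer median was 0.05.

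One gene differed in its genotype effect between inhibitory and excitatory neurons, 0.00878% of 11391 tested, with 465 at an unadjusted p under 0.05. Cort, the cortistatin precursor made by some Sst cells, was at 376 and 368 CPM in CTRL and 579, 437 and 346 CPM in DTA inhibitory neurons. In excitatory neurons it was at 11.6 and 11.6 CPM in CTRL and 5.22, 5.07 and 5.39 CPM in DTA. The inhibitory minus the excitatory log2 difference was 1.31 (edgeR adjusted p = 0.00955). In excitatory neurons of CTRL replicate 1 a single cell held 67 of 110 Cort UMIs, and without the 3 richest cells the levels were 3.41 and 10.9 CPM in CTRL and 4.2, 3.91 and 5.02 CPM in DTA, overlapping groups. A fit that was not robust called 0 genes here, Cort included.

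Among the 4 inhibitory subtypes the genotype effect differed for Trf (edgeR adjusted p = 0.00335), the iron carrier transferrin that oligodendrocytes make in quantity, 0.0135% of 7393 genes, with 293 at an unadjusted p under 0.05. Trf was at 0 and 65.4 CPM in CTRL and 7.998, 17.3 and 195 CPM in DTA cells of the rest. In Vip cells it was at 3.84 and 62.0 CPM in CTRL and 0, 0 and 31.9 CPM in DTA, and in Sst cells at 8.56 and 32.1 CPM in CTRL and 0, 1.07 and 3.47 CPM in DTA. One cell of DTA replicate 3 held 60 of 99 Trf UMIs in the rest, and with called doublets removed the test called 0 genes. The 10 oligodendrocyte markers, all detected, summed in the rest to 122 and 2292 CPM in CTRL and 408, 101 and 4112 CPM in DTA, highest in the 2 libraries that had most Trf. Their part in the result was not tested.

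Protein synthesis and energy genes leaned higher in DTA by small amounts. Of 81 ribosomal protein genes 78 were higher in inhibitory neurons (median 0.22) and 53 in excitatory neurons (median 0.07, or -0.07 without CTRL replicate 2, -0.02 without DTA replicate 1 and -0.01 without DTA replicate 2). Nuclear genes of the respiratory chain had 68 of 70 higher in Pvalb cells (median 0.24), 63 of 71 in inhibitory neurons (median 0.20) and 64 of 72 in excitatory neurons (median 0.18). Without CTRL replicate 2 the respiratory medians were -0.06 in inhibitory and -0.04 in excitatory neurons, so their direction rested on that library. Genes encoded in mitochondria themselves leaned the other way in inhibitory neurons, 4 of 12 being higher, and summed to 45190 and 45754 CPM in CTRL and 33767, 41664 and 31464 CPM in DTA.

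Clock genes, of interest since ipRGCs set the body clock to light, showed no shared direction. In excitatory neurons 10 of 19 core clock genes were higher in DTA and in inhibitory neurons 9 of 18, both with a median near 0. Genes that respond to glucocorticoids had 7 of 13 higher in excitatory neurons (median 0.02) and 5 of 13 in inhibitory neurons (median -0.06). Nr1d2, which encodes the clock repressor Rev-erb beta, was at 48.9 and 59.2 CPM in CTRL and 37.6, 40.4 and 43.0 CPM in DTA excitatory neurons (log2 -0.37, SE 0.14, not called by edgeR).

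Receptors and peptides of inhibitory neurons gave mixed directions. Htr2a, a serotonin receptor, was at 33.1 and 41.8 CPM in CTRL and 23.4, 22.1 and 20.4 CPM in DTA (log2 -0.77, edgeR adjusted p = 0.977), on a list of monoamine and acetylcholine receptors of which 13 of 19 were higher. Ntrk3, the receptor for neurotrophin-3, was at 212 and 260 CPM in CTRL and 135, 179 and 145 CPM in DTA (log2 -0.56), and 2 of 8 BDNF and TrkB genes were higher (median -0.10). Both genes were below CTRL in every DTA library. Perineuronal net genes had 1 of 8 higher (median -0.20, or 0.08 without CTRL replicate 2), with Hapln1 at 80.7 and 106 CPM in CTRL and 49.7, 61.5 and 56.7 CPM in DTA. Cck, the cholecystokinin precursor, was at 2643 and 2744 CPM in CTRL and 1513, 2098 and 2318 CPM in DTA (log2 -0.40), although thinning turned its sign (0.05). Neuropeptide genes in all had 11 of 14 higher (median 0.16, near 0 without CTRL replicate 2). Of 18 ionotropic glutamate receptor genes 8 were higher, of 23 presynaptic release genes 8, and of 14 neurexin and neuroligin genes 4.

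In excitatory neurons the opioid precursor gene Penk was at 26.2 and 19.0 CPM in CTRL and 33.4, 29.2 and 39.0 CPM in DTA (log2 0.62, SE 0.21, not called by edgeR), while 1 of 7 opioid genes in all was higher. Over all tested genes, 48.3% to 51.5% were higher in DTA, depending on the class. In Vip cells groups did not overlap for 16.9% of all tested genes, which is the background there.

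The median standard error of a log2 fold change was 0.200 in excitatory neurons, 0.247 in inhibitory neurons, 0.321 in Pvalb cells, 0.323 in Sst cells, 0.335 in the rest and 0.369 in Vip cells. The excitatory neurons of a library summed to 2872847 to 22101998 UMIs, and its Vip cells to 46344 to 376628.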

How the data were processed

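Gene-by-cell tables of raw UMI counts were deposited by the authors for 5 prefrontal and 2 motor cortex libraries; the submitters' processing notes list Cell Ranger 3.0.2, Seurat and the mm10 build. Filters on cells before deposit are not given in the sources used here. These deposited counts were taken as they stand: no cell was filtered further, and a gene missing from a library's table was taken as 0. The gates on 6 genes were applied to raw UMIs, and counts were summed per library and class. Genotypes were compared with edgeR 4.0.16 in R 4.3.3 (robust quasi-likelihood test, TMM, filterByExpr at a minimum count of 10, Benjamini-Hochberg threshold 0.05), with DESeq2 1.42.0 as an alternative. A gene could pass that filter through either group alone, so counts and medians over tested list members can lean toward that group. Shares were compared by exact permutation of the 10 assignments of 5 libraries (scipy 1.17.1), with 95% Clopper-Pearson intervals. Inhibitory against excitatory neurons and subtypes against each other were fitted with a term per library. The fits were tested on simulated data, with 200 changed genes per class drawn from the better counted ones. The genotype fits found 26 to 61 of 100 2-fold changes and 90 to 98 of 100 4-fold changes, depending on the class. Many 2-fold changes would thus be missed, and the fits made 5 to 12 false calls. The simulated sums were drawn without cells, so single cells rich in a gene, as for Npy and Hbb-bs, were not modelled. False calls of that kind are not covered by these numbers.

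CPM values were computed here from those counts. Scrublet (scanpy 1.11.5) called 23, 418, 68 and 56 doublets automatically in CTRL replicates 1 and 2 and DTA replicates 1 and 2; it called 0 in DTA replicate 3, where the 295 highest-scoring cells were taken instead. Doublets were kept, and removed as an alternative. Genes named are those called; with few called, the smallest p each way among genes of at least 20 CPM (subtypes 50 CPM) whose groups did not overlap; for subtype identity the largest folds; and list members by p. Apoe, Jun, Pthlh and second classes of a named gene were added after their values were seen. Some genes are not reported here. Members and lists were chosen with earlier results of these data known.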

Additional observations from a re-analysis of the deposited data

Results flagged for a closer look

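Cort was called by a test of the difference in genotype effect between the 2 neuron classes, with an inhibitory minus excitatory log2 difference of 1.31. The fit that was not robust called 0 genes there, 1 cell held 67 of 110 Cort UMIs of the excitatory neurons of CTRL replicate 1, and the excitatory groups overlapped without the 3 richest cells. Trf differed in its genotype difference among the 4 inhibitory subtypes, with an edgeR adjusted p of 0.00335. The inhibitory share of gated neurons was 3.69 percentage points higher in the DTA than in the CTRL library of the motor cortex, opposite to the prefrontal cortex. For the Pvalb share of inhibitory neurons the motor cortex difference was 3.56 percentage points, again opposite to the prefrontal libraries. Neither motor cortex difference, with 1 library a genotype, was tested against the prefrontal one. The motor cortex DTA library was also the deeper one.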

How the results depend on the processing

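All differences are DTA minus CTRL in percentage points or log2, and counts are genes called at the adjusted threshold. The difference in the inhibitory share of gated neurons was -6.72 with cells thinned to 1000 UMIs and ran from -5.59 to -1.80 when 1 library was left out. The Pvalb difference was -1.76 as a share of all gated neurons, a setting added after seeing the data, and stayed negative in every setting run. The difference in the Vip share of inhibitory neurons turned negative with doublets removed (-0.310), higher (-0.341) or lower (-0.827) subtype thresholds and as a share of gated neurons (-0.581), and ran from -6.44 to 6.88 with 1 library left out. The difference in the rest share of inhibitory neurons ran from -0.469 (without CTRL replicate 1) to 20.3 (without CTRL replicate 2).

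Without a filter on low counts, 25 genes were called in inhibitory neurons, 18 in Sst, 24 in Pvalb, 7 in Vip and 17 in rest cells, 13 between classes and 39 among subtypes. The fit that was not robust called 5 in Sst cells, 0 between classes and 2 among subtypes. With doublets removed 2 were called in Sst cells and 0 among subtypes, and with the stricter gate 1 each in Sst, Pvalb and Vip cells. A term for deep and shallow libraries gave 10, 3 and 8 in Sst, Pvalb and Vip cells. DESeq2 called 3 in excitatory neurons and 1 in Vip cells, and thinning to 2000 UMIs left 1 in Vip cells. Genes that set a subtype apart numbered 336 (Sst), 725 (Pvalb), 512 (Vip) and 164 (rest) after thinning. Leaving out 1 library gave 0 to 8 genes in excitatory and 0 to 26 in inhibitory neurons, 0 to 38 in Sst, 0 to 51 in Pvalb, 0 to 8 in Vip and 0 to 10 in rest cells, 2 to 12 between classes and 3 to 26 among subtypes; the highest counts in inhibitory, Sst and Pvalb cells came without CTRL replicate 1, where the lone CTRL library is assumed to vary like the DTA libraries. The cause was not tested.

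Only 2 pairs of libraries share a replicate number and the labels do not tie them. Same-numbered deviations from the group mean correlated at 0.168 and 0.062 in excitatory and 0.063 and -0.039 in inhibitory neurons. The 2 CTRL libraries deviate from their mean by equal and opposite amounts, so these correlations cannot show whether libraries were paired. With the replicate block, 1 gene was called in excitatory and 11 in inhibitory neurons, 17 in Sst, 8 in Pvalb, 9 in Vip and 11 in rest cells, the difference in the Vip share of inhibitory neurons was -0.780, and Satb1 in inhibitory neurons was at 0.068.

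Among the log2 differences of single genes under single settings, 19 values, from 16 results, changed sign. In excitatory neurons, the lowest values with 1 library left out came without CTRL replicate 1 and the highest without CTRL replicate 2 for Erbb4 (-2.09 to 0.89), Adarb2 (-1.11 to 0.71), Npas3 (-1.24 to 1.40), Tac2 (-1.22 to 1.17) and Grik2 (-0.52 to 0.021). The same held in inhibitory neurons for Neurod2 (-1.46 to 0.34), Crym (-1.31 to 0.37), Tbr1 (-1.02 to 0.56) and Cacna2d1 (-0.75 to 0.010). Nptx2 (-0.16 to 0.60) and Kcnip3 (-0.48 to 0.011) in excitatory neurons were at their lowest without CTRL replicate 2 and at their highest without CTRL replicate 1. Excitatory Sort1 ran from -0.034 (without DTA replicate 2) to 0.17, inhibitory Satb1 from -0.37 (without DTA replicate 2) to 0.073 (without CTRL replicate 1), and inhibitory Grik3 from -0.17 (without DTA replicate 2) to 0.66. Thinning to 2000 UMIs gave -0.033 for excitatory Sort1, and -0.40 and 0.054 for inhibitory Pdyn and Cck. Of the other settings for single genes, 1845 gave the same direction and side of the threshold, 35 passed it and 7 no longer did.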
